A study of Mus musculus with 24 samples.

Results

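Cre-positive (CRE+) dendritic cells were compared with Cre-negative (CRE-) littermate cells to find genes that moved in 1 direction wherever the CD11c-driven Cre was present. All 24 libraries of the series entered, 16 CRE+ and 8 CRE-. They are RNA-seq profiles of conventional dendritic cells, the cDC1 and cDC2 subsets, sorted by flow cytometry from the spleens of untreated C57Bl/6 mice aged 6 to 12 weeks. In the deletion line the CRE+ mice were CD11cCRE x Zeb2fl/fl and the CRE- mice were Zeb2fl/fl, so that Cre removed part of Zeb2. In the transgene line the CRE+ mice were CD11cCRE x R26-Zeb2Tg/Tg and the CRE- mice were R26-Zeb2Tg/Tg, so that Cre turned on extra Zeb2 from the Rosa26 locus. All mice of a line, controls included, carried the floxed or transgenic allele. Each combination of subset and line, called a stratum below, held 4 CRE+ and 2 CRE- libraries. The strata are named deletion cDC1, transgene cDC1, deletion cDC2 and transgene cDC2. A gene was called when the Cre term of a model with the 4 strata as covariates passed an adjusted p of 0.05 and the fold change had the same sign in every stratum. Every CRE+ library also had Zeb2 removed or added, and no mice had Cre alone. Cre protein, the DNA of the driver, the place where it sits in the genome and the chromosome segment inherited with it therefore cannot be told apart here. No source used here says that replicates were from different mice, and the p-values then cover only the spread between these libraries.

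Cre is a phage recombinase that cuts and rejoins DNA at loxP sites. Itgax encodes CD11c, the integrin alpha X chain, which pairs with the beta 2 chain and is the surface protein most used to mark dendritic cells. Drivers of this type place Cre under Itgax sequences, in some lines within a long genomic fragment that brings neighbouring genes along. The labels do not say how the driver used here was built. In mouse, Itgam, Itgax and Itgad, which encode the alpha M, alpha X and alpha D chains, lie side by side on chromosome 7.

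Subset markers and Zeb2 followed the labels, except that Zeb2 could not check the Cre label of deletion cDC1, where it was scarce without Cre. Xcr1, the chemokine receptor that defines cDC1, ran from 778 to 1260 CPM (the count scaled to a common library size with TMM factors) in the cDC1 libraries and from 3.55 to 7.74 in the cDC2 libraries. Sirpa, a marker of cDC2, ran from 1.9 to 117 CPM in cDC1 and from 1270 to 1580 in cDC2. Zeb2, the targeted gene, was 4.31-fold lower in CRE+ deletion cDC2 (30.7 to 41.4 CPM against 132 and 176) and 15.7-fold higher in CRE+ transgene cDC1 (41.4 to 46.3 against 2.36 and 3.26). In transgene cDC2 it stood at 148 to 159 CPM against 104 in both controls, without overlap (edgeR adjusted p = 0.676), and in deletion cDC1 at 0.457 to 2.67 against 0.488 and 2.56. Over the 4 strata these opposite shifts gave Zeb2 a common log2 fold change of 0.00 (SE 0.53, adjusted p = 1), and its Cre effect differed among strata (adjusted p = 2.91e-06, edgeR). Totals over genes ran from 21972763 to 26830584 counts in CRE- and from 23355617 to 36094786 in CRE+ libraries. The total, the number of genes detected, the shares of reads in no gene and of ambiguous reads, and the TMM factor did not separate CRE+ from CRE- libraries (exact two-sided permutation within strata over 50625 assignments, adjusted p = 0.997 for each of the 5).

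Of 13166 genes tested with edgeR's quasi-likelihood test, 4 were higher with Cre in all 4 strata, which is 0.0304% of those tested, and 2 were lower, 0.0152%. These 6 (0.0456%) were all the genes that passed the common test. The higher genes were Plcb1, Cox6a2, Itgad and Itgax, and the lower genes Ppp1r14a and Jchain. By the sign of the fold change alone, with no test, 755 genes (5.73%) were higher in all 4 strata and 573 (4.35%) were lower. At an unadjusted p of 0.05, 318 of the former and 209 of the latter passed, of 1008 genes in all. By contrast, the Cre effect of 1056 genes (8.02%) differed among the 4 strata in a test on 3 degrees of freedom, that of 268 (2.04%) between the subsets and that of 777 (5.9%) between the lines. A test of the mean of the 4 stratum contrasts, which takes the scatter from the 8 group means rather than from the additive model, called 28 genes higher (0.213%) and 9 lower (0.0684%), among them all 6.

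Plcb1 had the largest common effect of the 6 genes. It encodes phospholipase C beta 1, an enzyme that G protein-coupled receptors switch on to cleave a membrane lipid into second messengers. No CRE- library held more than 2 Plcb1 counts. In deletion cDC1 Plcb1 stood at 0.952, 0.499, 0.353 and 0.69 CPM in CRE+ replicates 1 to 4 and at 0.0376 and 0.042 CPM in the controls. In transgene cDC1 it stood at 1.37, 1.69, 1.47 and 0.58 CPM with Cre and at 0.0402 and 0 CPM without. Every CRE+ cDC1 library thus lay above all controls, with 8 to 40 counts each. In deletion cDC2 the CRE+ libraries held 13.4, 22.6, 13.8 and 18.8 CPM and the controls 0 and 0.0384 CPM. In transgene cDC2 they held 5.08, 4.33, 3.73 and 4.19 CPM against 0 and 0.0705 CPM. The CRE+ and CRE- libraries did not overlap in any stratum, which held for 5 genes higher with Cre (0.038% of those tested). With so few control counts the ratios were loose. The CRE+ to CRE- ratio of summed counts was 16 in deletion cDC1 (95% exact counting interval 4.24 to 135), 55 in transgene cDC1 (9.71 to 2190), 904 in deletion cDC2 (162 to 35700) and 120 in transgene cDC2 (33 to 993). These intervals cover counting error only. The common log2 fold change was 7.25 (SE 0.477, adjusted p = 5.1e-10), higher in 16 of 16 CRE+ libraries. The exact two-sided permutation p within strata was 1.98e-05, the smallest that 50625 assignments can give. Here and for the genes below, the permutation within strata treats all 24 libraries as independent, cDC1 and cDC2 libraries of the same number included. Its p would be larger if such libraries shared a mouse, which the labels do not say. The fitted size depends on the prior count, since the controls were near 0. The Plcb1 log2 change did not pass the test for a difference among strata (adjusted p = 0.18). Within single strata it passed in transgene cDC1 (edgeR adjusted p = 8.35e-05), deletion cDC2 (6.86e-09) and transgene cDC2 (1.84e-06), but not in deletion cDC1 (0.148).

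Plcb4, which encodes phospholipase C beta 4 of the same enzyme family, is the next gene downstream of Plcb1 among those tested. In RefSeq on GRCm38.p6, the assembly of mm10, Plcb1 lies on the forward strand at chr2:134786164-135475258 and Plcb4 on the same strand at chr2:135658603-136014602, 183.3 kb apart. Their starts are shown because both genes stood higher with Cre in every stratum. The bases run from at most 250 before the start given in the RefSeq promoter table to the last base before the first untranslated base annotated in GENCODE M21, with CG dinucleotides in capitals, at chr2:134785914-134786066 for Plcb1 and chr2:135659297-135659546 for the first of 2 Plcb4 starts listed, a start that lies inside the full RefSeq span of the gene.
Plcb1: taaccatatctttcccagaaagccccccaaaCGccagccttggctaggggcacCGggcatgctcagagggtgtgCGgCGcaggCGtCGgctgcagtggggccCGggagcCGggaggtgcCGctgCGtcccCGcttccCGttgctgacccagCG
Plcb4: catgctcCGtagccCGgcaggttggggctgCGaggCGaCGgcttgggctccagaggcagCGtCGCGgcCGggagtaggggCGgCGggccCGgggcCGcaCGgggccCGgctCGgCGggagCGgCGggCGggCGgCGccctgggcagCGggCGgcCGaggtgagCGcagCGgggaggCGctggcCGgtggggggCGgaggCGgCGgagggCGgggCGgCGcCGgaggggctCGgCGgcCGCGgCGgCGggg
The Plcb1 window of 153 bases held 13 CG dinucleotides, a number reached by 12.8% of 32851 promoter windows cut to the same length. The Plcb4 window of 250 bases held 42, a number reached by 0.865% of windows. Neither held CAGGTG or its reverse complement CACCTG, the letters of the E2 box that Zeb2 is known to bind, which were in 11.1% and 17.2% of windows of the same 2 lengths. These counts describe the letters of the windows and draw nothing about any factor.

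In deletion cDC2 Plcb4 stood at 31.9, 32.5, 37.6 and 36.2 CPM with Cre and at 2.76 and 3.19 CPM without, an 11.6-fold difference of means. In transgene cDC2 it stood at 32.4, 28.2, 29.6 and 37.0 CPM against 2.32 and 2.04 CPM, 14.6-fold. In cDC1 the difference was smaller: 23.2, 24, 25 and 22.5 CPM against 14.4 and 11.3 CPM in the deletion line, 1.84-fold, and 16, 13.9, 17.6 and 17.6 CPM against 11.2 and 11.8 CPM in the transgene line, 1.42-fold. The groups did not overlap in any stratum, and the difference passed in each stratum on its own (edgeR adjusted p = 0.0166 and 0.0317 in cDC1 and 1.85e-12 and 5.07e-13 in cDC2 of the deletion and transgene lines). The order of the subsets was also turned. Control cDC1 held more Plcb4 than control cDC2, and CRE+ cDC2 held more than CRE+ cDC1, 1.46-fold in the deletion line and 1.95-fold in the transgene line (exact two-sided permutation p = 0.0286 each, the smallest that 70 assignments allow, adjusted p = 0.0381 over 16 such comparisons). For Plcb4, and for Plcb1 and Cox6a2 below, these subset comparisons took cDC1 and cDC2 libraries of the same number as unpaired. If such libraries shared a mouse, which the labels do not say, an exact test on 4 pairs could not reach 0.05. The log2 Cre effect on Plcb4 was 3.01 larger in cDC2 than in cDC1 (edgeR adjusted p = 3.61e-12). In the additive model the common Plcb4 log2 fold change of 1.89 (SE 0.371) missed the threshold at adjusted p = 0.0881, so that Plcb4 is not among the 6, and passed it without control 2 of transgene cDC1 (adjusted p = 0.0491). The mean of the 4 contrasts was 2.20 (SE 0.0795, adjusted p = 2.42e-15). Tmx4, a thioredoxin-related membrane protein gene upstream of Plcb1 and the only other tested gene within 500 kb of it, had a common log2 fold change of -0.08 (SE 0.079, adjusted p = 0.889).

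Levels of Plcb1 differed between CRE+ groups. In CRE+ cDC2 the mean was 3.96-fold higher in the deletion line than in the transgene line. Between subsets it was 27.5-fold higher in cDC2 than in deletion cDC1 and 3.39-fold higher in the transgene line. The groups compared did not overlap in these 3 comparisons (exact two-sided permutation p = 0.0286 each, adjusted p = 0.0381 over the same 16). The mean of CRE+ transgene cDC1 was 2.05-fold that of the deletion line, with overlapping libraries (exact permutation adjusted p = 0.105). The lines also differ in Zeb2 itself, and its part in these differences was not tested.

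**Figure D1:**
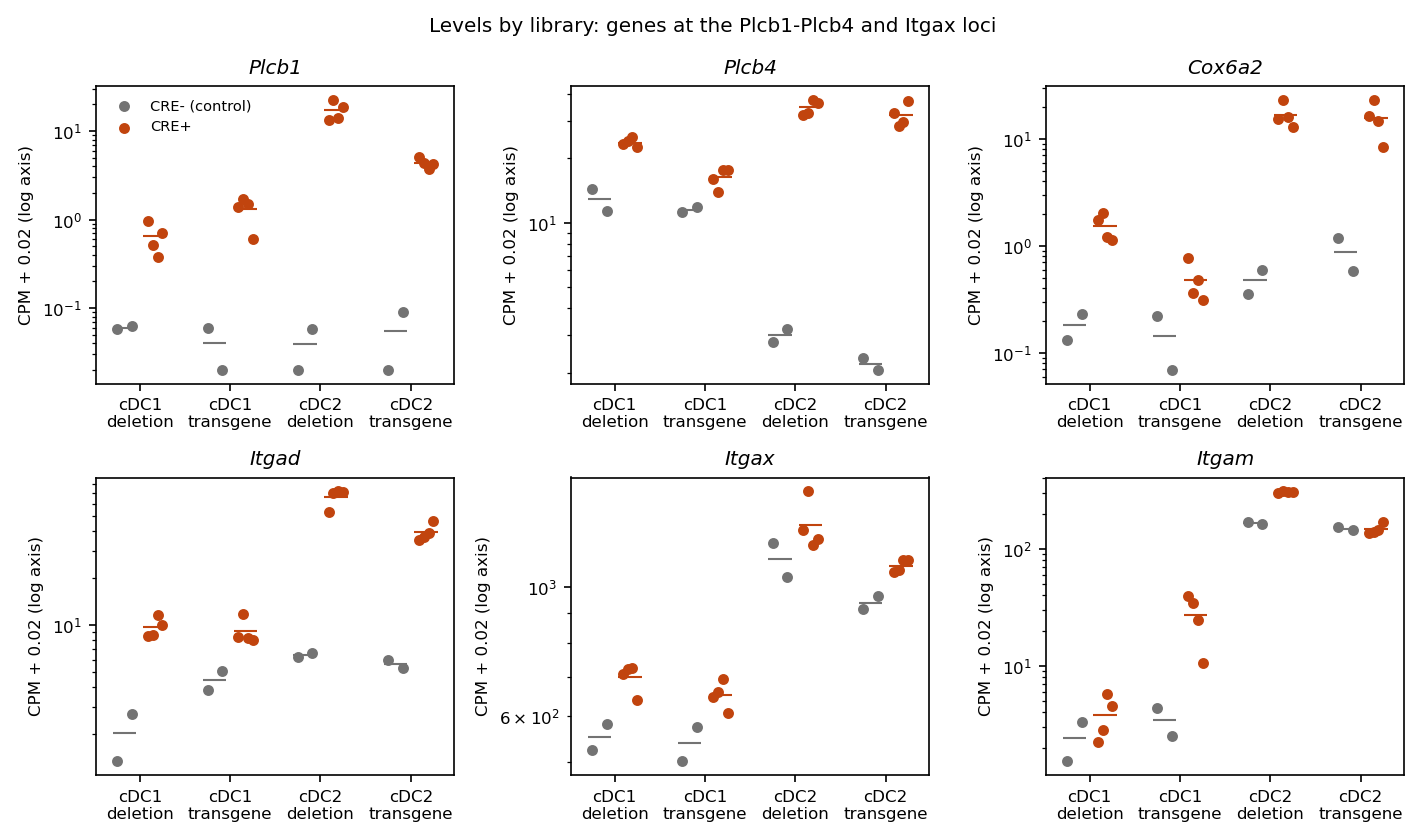
Level of 6 genes in every library, as CPM with 0.02 added on a log axis, for CRE- (grey, 2 libraries) and CRE+ (orange, 4 libraries) in each stratum, with a bar at the group mean. CRE+ libraries lie above both controls in all 4 strata for Plcb1, Plcb4, Cox6a2 and Itgad, while Itgax is shifted by a small amount and Itgam libraries overlap in 2 strata.

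At the Itgax locus itself, 26 genes within 500 kb were tested and 3 of them were called higher, 11.5% of the window beside 0.0304% of all genes. They were Itgax and, downstream of it, Itgad and Cox6a2. Itgax lies at chr7:128129526-128150657 on the forward strand, Itgad at chr7:128173933-128205504 on the forward strand and Cox6a2 at chr7:128205435-128206366 on the reverse strand. The 247 bases before the first untranslated base of Itgax in GENCODE M21, at chr7:128129300-128129546 on the forward strand, are shown because sequences of this gene drive the Cre, with CG dinucleotides in capitals. The last 21 of them lie past the RefSeq gene start.
Itgax: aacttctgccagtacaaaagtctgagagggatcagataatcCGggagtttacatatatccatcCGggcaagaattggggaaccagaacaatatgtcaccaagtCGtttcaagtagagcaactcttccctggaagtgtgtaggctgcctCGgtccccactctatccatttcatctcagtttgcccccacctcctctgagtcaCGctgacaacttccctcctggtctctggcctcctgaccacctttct
This window held 5 CG dinucleotides, where the median of windows of its length was 6, and no CAGGTG or CACCTG, which 17% of windows held. Which Itgax bases the driver carries is not given in the sources used here.

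Itgax means were higher by a small amount in every stratum. In deletion cDC1 it stood at 708, 722, 726 and 638 CPM with Cre and at 524 and 581 CPM without. In transgene cDC1 it stood at 647, 660, 693 and 607 CPM against 501 and 575 CPM. All 8 CRE+ cDC1 libraries were above their controls. In deletion cDC2 it stood at 1250, 1460, 1180 and 1210 CPM against 1190 and 1040 CPM, where the lowest CRE+ library fell below the higher control. In transgene cDC2 it stood at 1060, 1070, 1110 and 1110 CPM against 916 and 963 CPM, without overlap. The ratio of means was 1.26, 1.21, 1.14 and 1.16 in the 4 strata in that order. The common log2 fold change was 0.26 (SE 0.0457, edgeR adjusted p = 0.0213, exact permutation p = 3.95e-05) and did not pass the test for a difference among strata (adjusted p = 0.844). The Itgax call was lost without cDC1 control 1 (adjusted p = 0.0682) or 2 (0.0506) of the deletion line, cDC1 control 1 of the transgene line (0.105), cDC2 control 2 of the deletion line (0.0881) or cDC2 control 1 of the transgene line (0.0795). Over all 41 alternatives tried, those with a replicate block included, it was kept in 26 and lost in 15.

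Itgad encodes the alpha D chain, which in the spleen is known best from red pulp macrophages. In deletion cDC1 it stood at 8.46, 8.69, 11.6 and 10.0 CPM with Cre and at 1.32 and 2.69 CPM without, 4.83-fold higher. In transgene cDC1 it stood at 8.41, 11.7, 8.3 and 8.03 CPM against 3.82 and 5.07 CPM, 2.05-fold. The CRE+ cDC1 libraries of both lines covered overlapping ranges. In deletion cDC2 Itgad stood at 53.3, 70.0, 72.2 and 70.8 CPM against 6.2 and 6.65 CPM, 10.4-fold higher. In transgene cDC2 it stood at 35.2, 36.7, 39.0 and 46.2 CPM against 5.98 and 5.32 CPM, 6.96-fold. No CRE+ library overlapped a control. The common Itgad log2 fold change was 2.37 (SE 0.237, edgeR adjusted p = 5.53e-06, exact permutation p = 1.98e-05). Its size differed among strata (adjusted p = 7.3e-05): the log2 effect was 1.43 larger in cDC2 than in cDC1 (adjusted p = 0.000424) and 0.91 smaller in the transgene than in the deletion line (adjusted p = 0.0106).

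Cox6a2 encodes a subunit of cytochrome c oxidase, the last complex of the respiratory chain, known from heart and skeletal muscle and used as a marker of plasmacytoid dendritic cells. In deletion cDC1 it stood at 1.71, 2.0, 1.19 and 1.12 CPM with Cre against 0.113 and 0.21 CPM in controls, and in transgene cDC1 at 0.755, 0.339, 0.465 and 0.29 CPM against 0.201 and 0.0492 CPM. The CRE+ cDC1 libraries thus held 8 to 48 Cox6a2 counts each and the controls 1 to 5. In deletion cDC2 it stood at 15.2, 23.3, 16.1 and 12.8 CPM against 0.336 and 0.577 CPM, 36.9-fold higher. In transgene cDC2 it stood at 16.2, 22.9, 14.6 and 8.46 CPM against 1.16 and 0.564 CPM, 18-fold. As with Plcb1 and Itgad, every CRE+ library was above its controls and the cDC2 levels were the higher ones. Within single strata Cox6a2 passed in deletion and transgene cDC2 (edgeR adjusted p = 4.16e-07 and 6.55e-06), but not in deletion or transgene cDC1 (0.0606 and 0.155). The CRE+ mean in cDC2 was 11.2-fold that in cDC1 in the deletion line and 33.6-fold in the transgene line (exact permutation p = 0.0286 each, adjusted p = 0.0381). The common Cox6a2 log2 fold change was 4.17 (SE 0.354, edgeR adjusted p = 7.65e-08, exact permutation p = 1.98e-05) and did not pass the test for a difference among strata (adjusted p = 0.12). Of the 19 tested genes of the plasmacytoid list, Cox6a2 alone was called, 3 had an unadjusted p under 0.05, the median log2 fold change was 0.11 beside 0.00 over all genes, and the list summed to 1347 to 1819 CPM in CRE- and 1230 to 2164 CPM in CRE+ libraries.

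Reads of these neighbours cannot be fully told apart. RefSeq Itgad and Cox6a2 overlap at their ends on opposite strands, and the strand setting of the counting is not given in the sources used here. 4931431B13Rik, a transcript on the reverse strand within the Itgad gene, had 0 counts in 7 of 8 controls and 2 in the other. Its CRE+ libraries held 0, 4, 4 and 2 counts in deletion cDC1, 16, 5, 0 and 2 in transgene cDC1, 1, 0, 10 and 4 in deletion cDC2 and 11, 7, 7 and 7 in transgene cDC2. It did not pass the common test (adjusted p = 0.228).

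Itgam, on the other side of Itgax at chr7:128062640-128118491, behaved otherwise. It encodes CD11b, a chain that marks cDC2. In transgene cDC1 it stood at 39.3, 34.3, 24.8 and 10.5 CPM with Cre and at 4.34 and 2.51 CPM without, and in deletion cDC2 at 300, 312, 306 and 308 CPM against 169 and 162 CPM. In transgene cDC2 the groups overlapped at 137, 139, 144 and 169 CPM against 154 and 144 CPM, as they did in deletion cDC1 at 2.21, 2.83, 5.69 and 4.48 CPM against 1.5 and 3.32 CPM. The common Itgam log2 fold change of 0.93 did not pass (SE 0.313, adjusted p = 0.423), its sign was not the same in all strata, and the effect differed among strata (adjusted p = 0.0143).

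The other 21 tested genes of the window had common log2 fold changes from -0.30 to 0.79 with a median of 0.04, and none was called by edgeR, where 2 had an unadjusted p under 0.05. The upper end of the range was Tgfb1i1, which had at most 22 counts in a library and a standard error of 0.79. Pycard, the inflammasome adaptor just upstream of Itgam, had a log2 fold change of -0.03 (SE 0.0559), and Armc5, which starts 31 kb downstream of Cox6a2, of -0.13 (SE 0.0726). The called genes thus lie in a run from Itgax to Cox6a2, with 4931431B13Rik between them. Itgb2, on chromosome 10, encodes the beta 2 chain that pairs with all 3 alpha chains, and had a log2 fold change of -0.06 (SE 0.0586, adjusted p = 0.885). Of the 21 tested genes of the integrin list, which also holds Fermt3 and Tln1 for the adaptors kindlin-3 and talin, Itgax and Itgad were called higher and none lower, with a median log2 fold change of 0.03.

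**Figure D2:**
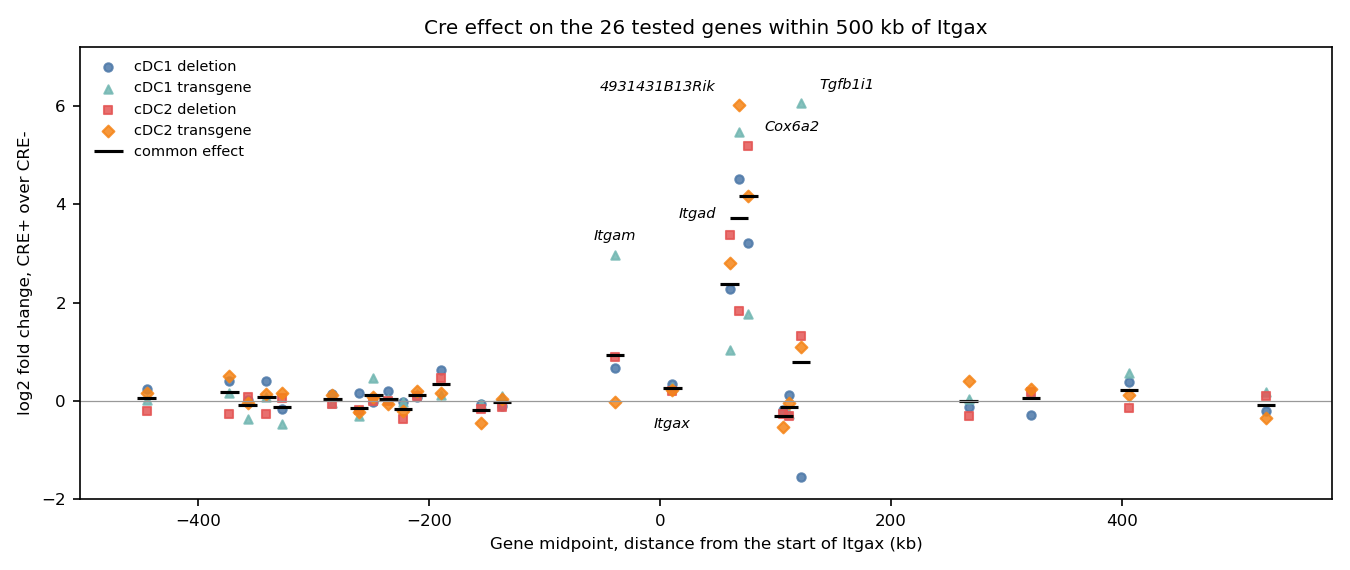
Log2 fold change of CRE+ over CRE- libraries for the 26 tested genes within 500 kb of Itgax, by the distance of the gene's midpoint from the start of Itgax in kb, with 1 symbol per stratum and a black bar for the common effect. Itgad and Cox6a2 stand above 1 in every stratum, the genes upstream of Itgam stay near 0, and the stratum values of 4931431B13Rik and Tgfb1i1 rest on few counts and on the prior count.

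The lines share no library, and their Zeb2 change runs in opposite directions, so each was also fitted alone with subset as covariate. In the deletion line 13 genes were higher (0.101% of 12808) and 4 lower (0.0312%), and in the transgene line 54 were higher (0.426% of 12676) and 126 lower (0.994%). The genes called higher in both lines were Plcb1, Cox6a2 and Itgad, which are 23.1% of the higher list of the deletion line and 5.56% of that of the transgene line. Their log2 fold changes in the deletion and the transgene line were 7.94 and 6.37 for Plcb1 (adjusted p = 1.1e-05 and 6.13e-05), 4.66 and 3.74 for Cox6a2 (1.1e-05 and 0.00299) and 2.91 and 1.90 for Itgad (1.1e-05 and 0.0122). No gene was called lower in both lines by edgeR, where 21 had an unadjusted p under 0.05 and a lower level in both, and DESeq2 called 1, Jchain. Pglyrp1, a peptidoglycan-binding antibacterial protein gene, was called in both lines in opposite directions, at 0.74 in the deletion line (adjusted p = 0.0245) and -1.16 in the transgene line (adjusted p = 0.0203). Itgax had nearly the same log2 fold change in both lines, 0.27 and 0.24, and passed in neither alone (adjusted p = 0.176 and 0.0614).

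**Figure D3:**
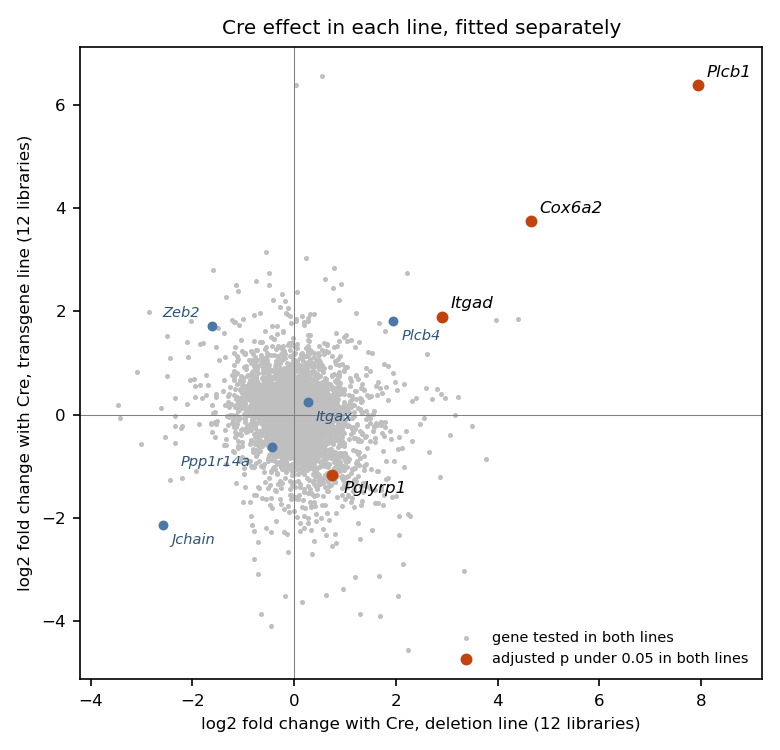
Log2 fold change with Cre of each gene in the deletion line (horizontal, 12 libraries) and in the transgene line (vertical, 12 libraries), each fitted alone. Orange points passed an adjusted p of 0.05 in both lines and blue points are other genes named in the text, with Plcb1, Cox6a2 and Itgad at the upper right and Pglyrp1 with opposite signs.

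Lower with Cre were Jchain and Ppp1r14a. Jchain encodes the joining chain of polymeric immunoglobulins, made in quantity by plasma cells. In deletion cDC1 it stood at 1.49, 0.79, 0.926 and 1.51 CPM with Cre and at 10.4 and 11.3 CPM without, and in transgene cDC1 at 1.91, 9.28, 10.4 and 7.8 CPM against 57.5 and 19.0 CPM. In deletion cDC2 it stood at 2.29, 0.475, 1.74 and 1.12 CPM against 2.91 and 7.69 CPM. All CRE+ libraries of these 3 strata were below both controls. In transgene cDC2 Jchain stood at 31.5, 105, 11.6 and 15.5 CPM against 42.4 and 259 CPM, and the groups overlapped. The 2 controls of a stratum lay far apart in 3 of the 4 strata. The common Jchain log2 fold change was -2.32 (SE 0.415, edgeR adjusted p = 0.0404, exact permutation p = 0.000158). The call held without each of 6 of the 24 libraries and was lost without each of the other 18, with the adjusted p between 0.00187 and 0.167 over all 24, the latter without cDC1 control 1 of the transgene line.

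Fewer cells of a type and less RNA per cell cannot be told apart in sorted bulk libraries, and other genes of antibody-making cells were read beside Jchain. Of 18 plasma cell genes, a list added after these values were seen, 8 were tested, none was called and 4 had an unadjusted p under 0.05. The immunoglobulin genes of this list and of the B cell list were not among the counted symbols. Tnfrsf17 and Fkbp11 had too few counts to be tested. Mzb1, an endoplasmic reticulum chaperone of plasma cells, had a log2 fold change of -0.95 (SE 0.417, adjusted p = 0.584) and Derl3, which clears misfolded proteins there, of -0.48 (SE 0.23, adjusted p = 0.647). Xbp1 and Irf4, transcription factors of plasma cells that dendritic cells also express, had values of 0.24 and 0.75 (adjusted p = 0.333 and 0.336). The plasma cell list summed to 408.6 to 591.9 CPM in CRE- and 468.4 to 888.4 CPM in CRE+ libraries. That sum pools both subsets and includes Xbp1, so it does not isolate plasma cell RNA. Of 8 tested B cell genes none was called, none had an unadjusted p under 0.05, and the sum ran from 34.22 to 90.84 CPM in CRE- and from 11.82 to 284.7 CPM in CRE+ libraries. The part of such cells in the Jchain result was not tested.

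Ppp1r14a encodes CPI-17, an inhibitor of myosin phosphatase best known from smooth muscle. In deletion cDC1 it stood at 6.32, 8.23, 6.97 and 6.12 CPM with Cre and at 8.64 and 12.2 CPM without, and in transgene cDC1 at 5.36, 6.61, 7.4 and 7.22 CPM against 10.1 and 12.6 CPM. All CRE+ cDC1 libraries were below their controls. In cDC2 it stood at 49.2, 51.0, 63.5 and 42.3 CPM against 56.8 and 69.2 CPM in the deletion line, with overlap, and at 44.7, 39.9, 51.8 and 54.6 CPM against 76.5 and 58.8 CPM in the transgene line, without. The ratio of control to CRE+ means was 1.51, 1.71, 1.22 and 1.42 in the 4 strata in that order. The common Ppp1r14a log2 fold change was -0.53 (SE 0.0928, edgeR adjusted p = 0.0192, exact permutation p = 7.9e-05). Its call was lost without cDC1 control 2 (adjusted p = 0.0553) or cDC2 control 2 (0.0575) of the deletion line, or cDC2 control 1 of the transgene line (0.0795). Neither gene lay near another called gene: of 19 tested neighbours of Ppp1r14a within 500 kb of chr7:29289320-29293390 and 5 of Jchain within 500 kb of chr5:88519809-88527897, none was called.

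**Figure D4:**
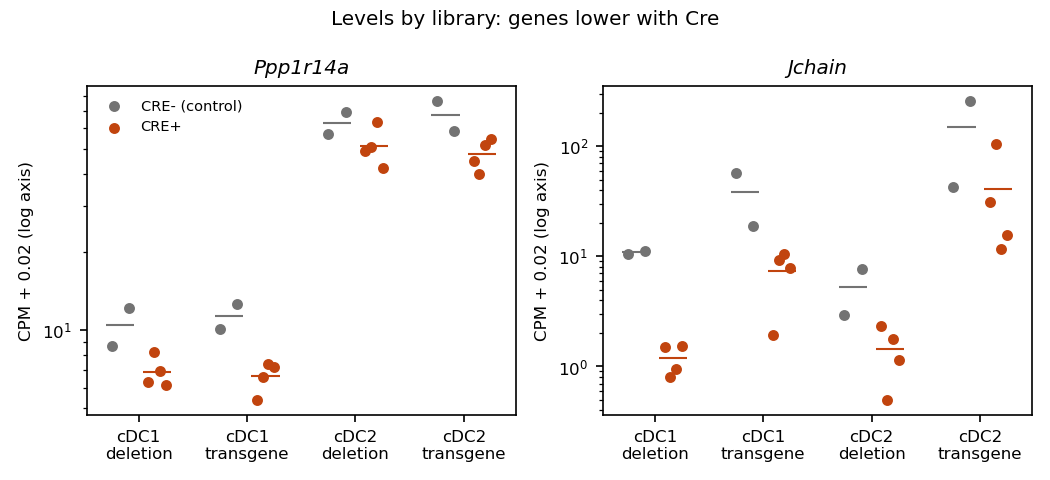
Level of Ppp1r14a and Jchain in every library, as CPM with 0.02 added on a log axis, for CRE- (grey, 2 libraries) and CRE+ (orange, 4 libraries) in each stratum, with a bar at the group mean. CRE+ means are lower in all 4 strata, and the Jchain libraries of cDC2 in the transgene line overlap and reach 259 CPM.

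Several genes came close to the threshold and are named here after their values were seen. Palld, which encodes the actin-binding protein palladin, was higher in all 4 strata with a common log2 fold change of 0.81 (SE 0.158, adjusted p = 0.0506). The Palld test passed without each of 5 of the 24 libraries and missed without each of the others (adjusted p = 0.0227 to 0.145). Its means were 12.4 against 8.37 CPM and 8.33 against 5.94 CPM in cDC1 of the deletion and transgene lines, and 7.77 against 4.37 CPM and 5.45 against 1.95 CPM in cDC2. Of these 4 differences the last passed in its own stratum (adjusted p = 0.0333). Siglecf, a sialic acid-binding receptor of eosinophils and some macrophages, had no overlap in any stratum (log2 fold change 1.68, SE 0.359, adjusted p = 0.0954). Its CRE+ libraries ran from 0.435 to 5.27 CPM against 0 to 1.15 CPM in controls. In cDC1 the Siglecf controls held 0 to 7 counts and the CRE+ libraries 11 to 46. Within single strata Siglecf passed in transgene cDC1 (edgeR adjusted p = 0.00119) and deletion cDC2 (0.0197), but not in deletion cDC1 (0.999) or transgene cDC2 (0.829). Frmd5, a FERM domain gene, was the 1 gene whose CRE+ libraries lay below both controls in each stratum (0.0076% of those tested), with means of 1.6 against 2.85 CPM and 0.327 against 1.47 CPM in cDC1 and 17.5 against 23.2 CPM and 16 against 24.2 CPM in cDC2 of the deletion and transgene lines (log2 fold change -0.83, SE 0.179, adjusted p = 0.0954). Bach1, a repressor that responds to heme, had a log2 fold change of 0.38, Rassf4, a Ras-association gene, of 0.25, and Rcbtb2 of -0.31 (adjusted p = 0.0954, 0.095 and 0.0954). Of these 3, Bach1 passed without each of 2 of the 24 libraries (adjusted p = 0.0132 to 0.294 over all 24). These 6 genes passed in the test of the mean of 4 contrasts, at adjusted p = 0.00448 for Palld, 0.00124 for Siglecf, 0.00121 for Frmd5, 0.0145 for Bach1, 0.0118 for Rassf4 and 0.0118 for Rcbtb2.

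Of the 28 higher and 9 lower genes of that second test, 10 and 3 also differed in effect among strata, so that their mean hides unlike sizes. Fcer1g, the signalling chain of Fc receptors, had a log2 fold change of 2.58 in transgene cDC1 and of 0.67, 0.13 and 0.09 in the other strata. Casp1, the inflammasome protease, had 1.26 there and 0.02 to 0.05 elsewhere, and Slc7a11, the cystine transporter, 4.32 there and 0.06 to 1.36 elsewhere. Genes that did not pass the test for a difference among strata included Sh3kbp1, an adaptor of receptor endocytosis (0.20 to 0.47 in the 4 strata, adjusted p = 0.0214), Tnfrsf11a, the receptor RANK (0.19 to 0.45, adjusted p = 0.0344), and St3gal1, a sialyltransferase (0.09 to 0.52, adjusted p = 0.0359). None of these passed in the additive model.

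The 19 gene lists held no other called gene. Cre can cut mammalian DNA at loxP-like sites, and DNA damage genes were read for that reason. Of 24 p53 target genes none was called, 1 had an unadjusted p under 0.05 (Ccng1, a cyclin induced by p53, log2 fold change 0.19, adjusted p = 0.402), and the median was 0.04. Of 25 DNA break genes none was called, 1 had an unadjusted p under 0.05 (Mre11a, 0.21, adjusted p = 0.647), and the median was -0.02. Of 24 cell cycle genes none was called and none had an unadjusted p under 0.05, but 20 differed in their Cre effect among strata. Over all 13166 genes tested, 1008 had an unadjusted p under 0.05 and 1056, or 8.02%, differed among strata. Of 24 interferon response genes none was called, 7 had an unadjusted p under 0.05, 11 differed among strata, and the median was 0.28.

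No gene of the heat shock or macrophage lists was called either. In the early response and heat shock list of 21 genes, 7 were higher in all 4 strata by fold change alone, 33.3% beside 5.73% of all genes, 6 had an unadjusted p under 0.05, and the median was 0.20. They included the chaperone genes Hsp90aa1 (log2 fold change 0.27, SE 0.0741, adjusted p = 0.333), Hspa1b (0.63, SE 0.258, adjusted p = 0.572), Hsph1 (0.54, SE 0.203, adjusted p = 0.514) and Dnajb1 (0.43, SE 0.168, adjusted p = 0.548). In the red pulp macrophage list of 15 genes, 7 were higher in all 4 strata, 46.7%, 3 had an unadjusted p under 0.05, the median was 0.32, and the sum ran from 337.4 to 862.5 CPM in CRE- and from 349 to 1180 CPM in CRE+ libraries. Hmox1, which breaks down heme, had 0.60 (SE 0.184, adjusted p = 0.352), Vcam1, an adhesion molecule, 0.32 (SE 0.154, adjusted p = 0.646), and Spic, the transcription factor of these macrophages, 0.53 (SE 0.263, adjusted p = 0.677). Fcna had 0.72, Mertk 0.72, Gpx3 0.35 and Axl 0.29, while Slc40a1 had 0.80 and Adgre1 0.51 with signs that differed among strata (edgeR adjusted p from 0.584 to 0.912 for these 6). In transgene cDC1 Hmox1 had 1.61, Spic 1.96 and Adgre1 2.96. In the other strata they had 0.25 to 0.37, 0.04 to 0.30 and -0.42 to 0.31. Fcna and Slc40a1 were highest in deletion cDC2, at 2.17 and 1.93. The Cre effect of 2 genes of the list differed among strata, Adgre1 (adjusted p = 4e-04) among them. The complement genes C1qa, C1qb and C1qc lay near 0, at 0.06, -0.05 and -0.08. So did Cd163 at 0.05, Trf at -0.05 and Cd5l at -0.01. The part of macrophage RNA in the Itgad and Siglecf values was not tested. In the cDC1 and cDC2 identity lists of 20 genes each none was called, 4 and 5 had an unadjusted p under 0.05, 12 and 10 differed among strata beside 8.02% of all genes, and the medians were -0.17 and 0.40. In the lists for monocytes, T cells, NK cells, neutrophils, erythroid cells, maturation, MHC class II and the inflammasome none was called, with medians from -0.70 to 0.08 and 0 to 4 genes of a list at an unadjusted p under 0.05.

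Id2, which encodes an inhibitor of E proteins and is the second gene of the study's title, showed no common effect. Its log2 fold change was 0.01 (SE 0.159, adjusted p = 0.997), and the effect differed among strata (adjusted p = 7.27e-05), with 1.13 in deletion cDC2, -0.59 in transgene cDC1, and -0.07 and -0.22 in the cDC1 deletion and cDC2 transgene strata. Taken stratum by stratum, 3 genes were higher and 0 lower in deletion cDC1 (0.0228% and 0%), 308 and 374 in deletion cDC2 (2.34% and 2.84%), 472 and 436 in transgene cDC1 (3.58% and 3.31%), and 13 and 25 in transgene cDC2 (0.0987% and 0.19%). In deletion cDC1 the 3 genes were Itgad at a log2 fold change of 2.28 (adjusted p = 3.04e-05), Plcb4 at 0.88 (adjusted p = 0.0166) and Zfp831, a zinc-finger gene, at 4.39 (adjusted p = 0.0166). The common Zfp831 log2 fold change was 0.46 (adjusted p = 0.762).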

How the data were processed

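The deposited files hold raw counts per gene symbol for 24421 symbols, made by the authors without scaling. Per the submitters' processing notes, FastQC 0.11.4, Trimmomatic 0.35, TopHat2 2.1.0 and SAMtools 0.1.18 were used with mm10. The counting program, the annotation and whether strand was used are not given in these sources. Per the labels' protocols, 4 ng of RNA per library was amplified with SMART-Seq v4, with 15 PCR cycles, 250 bp inserts and 75 bp reads on 2 flow cells. Amplified reads without molecular identifiers are not independent molecules. The 5 summary lines per file were dropped. Reads in no feature were 10.43 to 15.68% of a library and ambiguous reads 0.9702 to 1.086%.

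Libraries were grouped by their labels. Counts were fitted in R 4.3.3 with edgeR 4.0.16 (filterByExpr over 8 groups, minimum count 10 and minimum total 15; TMM; robust quasi-likelihood; Cre plus stratum), with Benjamini-Hochberg adjustment over 13166 genes at 0.05. Stratum fold changes and tests of differences came from the 8 group means. Single genes were also permuted exactly within strata, on log2 CPM with a prior count of 0.5. The p-values of these permutations were not adjusted for the number of genes tested. All of them use the same libraries and values as the edgeR tests, so none adds independent support. Plcb1, Jchain and Ppp1r14a were moreover permuted because they had passed the edgeR test. Genes that edgeR did not call also had low permutation p-values: 1.98e-05 for Plcb4, Siglecf and Frmd5, and 0.000751 for Itgam. The 28 replicate pairs differed beyond sampling noise (chi-square per gene 10.11 to 51.1). Positions and promoter sequences are RefSeq's on GRCm38.p6, strands GENCODE M21's, and 13133 tested genes had a position.

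Named genes were Zeb2, Id2, Itgax, the tested genes within 500 kb of Itgax, up to 12 called genes per direction whose average log2 CPM was 0 or more, up to 3 called members per list, up to 8 genes per direction called in both lines, and up to 4 called genes of mixed sign that differ among strata, of which there were none. Other genes were named after their values were seen. The comparison, its members and the 19 lists were chosen with earlier results of these data known, and the plasma cell list was added later. Alternatives used DESeq2 1.42.0, limma 3.58.1, other filters and scaling, replicate blocks, subsets of strata, a 1.2-fold minimum and each library left out. The procedure was tested on simulated counts with 100 genes changed 2-fold and 100 changed 4-fold. With no other Cre effect it recovered 99% and 100% of them, and called 12 other genes of 12910. With the measured group means kept it recovered 92% and 99%, and called 160 other genes of 12986, which need not be false.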

Additional observations from a re-analysis of the deposited data

Results flagged for a closer look

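The Cre effect differed among strata for 5 of the genes described above, by edgeR's F test on 3 degrees of freedom: Plcb4 (adjusted p = 3.76e-11), Zeb2 (2.91e-06), Id2 (7.27e-05), Itgad (7.3e-05) and Itgam (0.0143). For Plcb4 and Itgad all 4 stratum values are above 0 and the sizes differ. For Zeb2, Id2 and Itgam the signs differ as well, though the negative Itgam value, in transgene cDC2, was only -0.02.

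In 4 of 68 groups of 4 CRE+ libraries (17 genes in 4 strata), 1 library stood apart, with its gap to the nearest library over the group's range on a log2 scale above Dixon's critical value. Chance alone gives about 1 in 20. Itgad was highest in replicate 2 of cDC1 of the transgene line, at 11.7 CPM against 8.03 to 8.41 CPM (ratio 0.877), and lowest in replicate 1 of cDC2 of the deletion line, at 53.3 against 70.0 to 72.2 CPM (0.898). Jchain was lowest in replicate 1 of cDC1 of the transgene line, at 1.91 against 7.8 to 10.4 CPM (0.829). Palld was highest in replicate 2 of cDC1 of the deletion line, at 18.3 against 9.94 to 11.0 CPM (0.834).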

How the results depend on the processing

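Plcb1, Cox6a2 and Itgad kept their direction in all 41 alternatives and their call in 40, and lost the call in the cDC1 libraries alone (adjusted p = 0.0706, 0.156 and 0.0706). Ppp1r14a kept its call in 29 of 41 and Jchain in 12 of 41. The count of genes higher in all strata fitted, 4, was 0 in cDC1 alone, 9 in cDC2 alone, 11 in the deletion line alone, 54 in the transgene line alone, 17 with DESeq2, 28 with the mean of 4 contrasts and 3 to 7 with each library left out, the last without control 2 of cDC1 of the transgene line. The count lower, 2, was 0 at a 1.2-fold minimum, in cDC1 alone and without cDC1 of either line, 1 in cDC2 alone and with no filter, 4 in the deletion line alone, 122 in the transgene line alone, 6 with DESeq2, 9 with the mean of 4 contrasts, 16 without cDC2 of the deletion line and 0 to 2 with each library left out. Genes lower in both lines were 1 with DESeq2. Genes differing among strata were 1644 with DESeq2 and 691 to 1140 with each library left out, the lowest without control 1 of cDC2 of the deletion line. Genes called near Itgax were 0 in cDC1 alone.

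Itgax stayed higher in all 41 alternatives, at 0.20 to 0.30. It lost the call at the 1.2-fold minimum (0.26, adjusted p = 1), in cDC1 alone (0.30, 0.156), cDC2 alone (0.20, 0.463), the deletion line alone (0.27, 0.176), the transgene line alone (0.24, 0.0614), and without cDC1 of the deletion line (0.23, 0.187), cDC1 of the transgene line (0.25, 0.182) or cDC2 of the transgene line (0.26, 0.173), and kept it in 19 of 24 fits that leave out a library (0.23 to 0.28, adjusted p = 0.00908 to 0.105). Zeb2 in cDC2 of the transgene line passed in its 6 libraries alone (0.55, adjusted p = 0.0145), and in cDC1 of the deletion line turned to 1.31 without control 2 (-1.10 to 1.31 over 6 fits). The Id2 effect, near 0, turned negative in cDC1 alone (-0.34), the transgene line alone (-0.42, where it passed, adjusted p = 0.0417), without cDC2 of the deletion line (-0.30), and in 6 of 24 fits that leave out a library (-0.15 to 0.08 over all 24). The causes of these shifts were not tested.

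Replicate numbers were not taken as pairs: same-numbered CRE+ and CRE- libraries of a stratum had correlations of deviations from -0.0649 to 0.0393, and same-numbered cDC1 and cDC2 libraries from 0.00293 to 0.132, with 1 of 12 over 0.1. All 8 CRE+ cDC1 libraries correlated best with the cDC2 library of their own number, and with a prior count of 2 their correlations were 0.0764 to 0.17 (7 of 8 over 0.1, controls -0.00779 to 0.0352), a hint from the data and not from the design. With number as a replicate block within line, Itgax had 0.28 (adjusted p = 0.0747). With cDC1 and cDC2 counts of a number summed, Itgax had 0.21 (0.387), Id2 -0.12, and 0 genes were lower. With duplicateCorrelation as the block, 1 gene was lower. The 4 higher genes became 3, 4 and 5 under these blocks. At 21972763 or more counts per library, control levels of Plcb1 and 4931431B13Rik stay at 0 to 2 counts, so that their fold changes have no firm size.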
